A study of Mus musculus with 2 samples.

Results

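Cytochrome P450 (Cyp) and UDP-glucuronosyltransferase (Ugt) genes were examined in macrophages of metastatic liver, with and without FABP7. Members were all genes whose symbol began with Cyp and a digit or with Ugt1 or Ugt2, except Cyp51, Cyp1a1 and Cyp1b1. They numbered 116 of the 22322 genes in the table, 97 of them Cyp and 19 Ugt genes. By general knowledge of where each is expressed, 69 were taken as hepatocyte-type and 14 as also expressed in macrophages, and 33 were placed in neither class. The classes were set with earlier results of these data known.

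The WT and FABP7 KO groups held 1 library each. Nothing below is replicated, and no p-value can be given. Both groups were male mice aged 6 to 8 weeks, labelled C57BL/6 (for the knockout the methods give C57BL/6 J, with WT littermates in the metastasis experiments), and all received 500000 MC38 cells, a mouse colon carcinoma line, in 100 µl PBS into the spleen. On day 10 macrophages were taken from the metastatic liver by F4/80 positive selection. The knockout is global and so not limited to macrophages, and both libraries came from metastasis-bearing liver. How many mice went into a library was not stated, and 1 label calls the KO sample a knockdown where the title and the study's methods say knockout. Fabp7 stood at 354 FPKM (WT) and 0.69 FPKM (KO), and of every pair of values below the WT library comes first. FPKM are fragments scaled to gene length and library size, so levels of different genes can be compared. The libraries were estimated at 17800000 (WT) and 17900000 (KO) fragments, at which 1 FPKM on a gene of 2 kb is about 36 fragments. All 12 macrophage and Kupffer cell markers were at 183 FPKM or more in both libraries, with Csf1r at 2372 and 3173 FPKM and Clec4f at 3188 and 4156 FPKM.

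P450 enzymes are heme proteins that oxidise lipids, steroids, vitamins and drugs with electrons passed on by a reductase. UGT enzymes then attach glucuronic acid to such products, or to bilirubin and bile acids, so that they can be excreted. In liver both families are known mainly from hepatocytes, while a few sterol and fatty acid P450s are also made by macrophages and other leukocytes.

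Most members were near or below detection in both libraries. A level of at least 1 FPKM in at least 1 library was reached by 22 of the 116 members, against 48.2% of all genes. Another 57 had values above 0 but under this floor, and 37 were listed at 0 in both libraries, where 31.9% of all genes were. For a gene of 2 kb a value of 0 allows up to 0.0838 FPKM, the level of 3 fragments, counting error only. Just inside the floor stood Ugt2b34 (0.47 and 1.02 FPKM) and Ugt1a6b (1.04 and 0.43 FPKM), and just outside it Cyp3a25 (0.66 and 0.97 FPKM) and Ugt1a6a (0.97 and 0.54 FPKM).

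The highest levels belonged to sterol and fatty acid P450s. Cyp27a1 (ENSMUSG00000026170), the mitochondrial hydroxylase of the sterol side chain, was at 24.5 FPKM (WT) and 38.0 FPKM (KO). Cyp4v3, an omega-hydroxylase of fatty acids, was at 25.8 and 26.5 FPKM. It was listed as hepatocyte-type, but its level was more than 3 times that of any other gene of that class in both libraries, and sums and ratios are therefore also given without it. Cyp20a1, a P450 without a settled substrate, was at 14.6 and 12.2 FPKM.

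The Cyp4f genes, which include the leukotriene hydroxylases of leukocytes, split into 3 members above the floor and 6 below it. Cyp4f13 was at 12.5 FPKM (WT) and 16.9 FPKM (KO), Cyp4f16 at 13.2 and 13.9 FPKM, and Cyp4f18, known from neutrophils and macrophages, at 9.92 and 11.1 FPKM. The hepatocyte Cyp4f14 and Cyp4f15 did not exceed 0.35 FPKM in either library. Of the 100-base stretches of its annotated transcripts, Cyp4f16 shared 5.95% with other genes, mainly Cyp4f37, and Cyp4f18 and Cyp4f13 shared none.

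**Figure D1:**
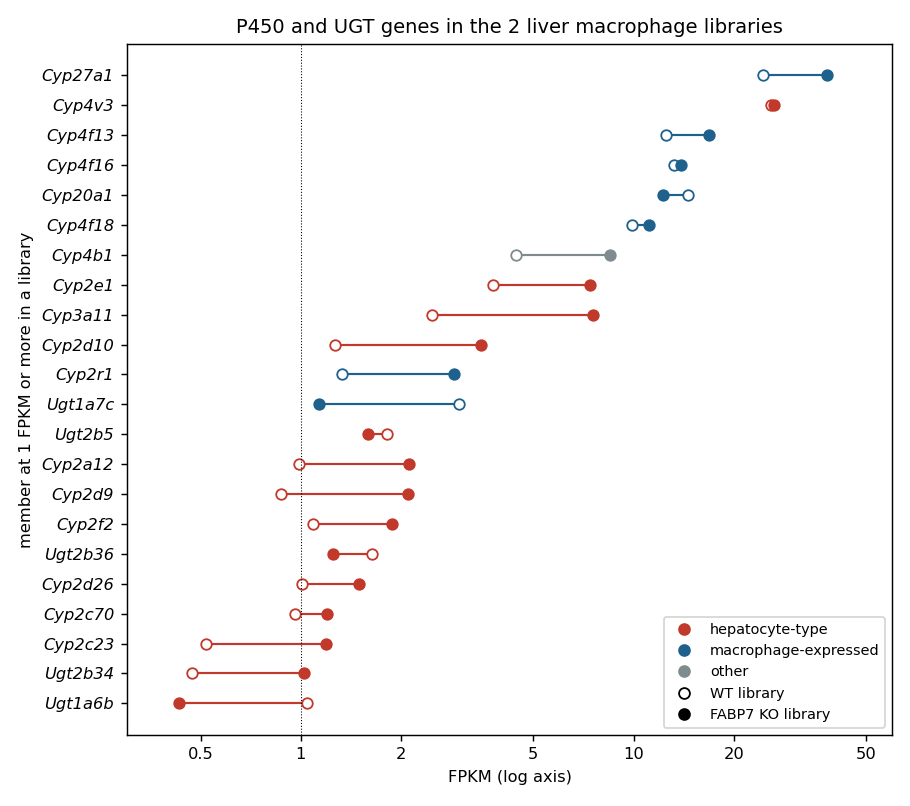
FPKM on a log axis of the 22 members at 1 FPKM or more in a library (rows, ordered by mean), in the WT (open circles) and FABP7 KO library (filled circles), 1 library each, with the 1 FPKM floor dotted. Cyp27a1, Cyp4v3, Cyp4f13, Cyp4f16, Cyp20a1 and Cyp4f18 head the order at 9.92 to 38.0 FPKM, and the red hepatocyte-type P450s other than Cyp4v3 have their filled circle right of the open one.

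Next came Cyp4b1, a hydroxylase of fatty acids and foreign compounds placed in neither class, at 4.43 FPKM (WT) and 8.50 FPKM (KO). Below it stood drug-metabolising enzymes of hepatocytes. Cyp2e1 (ENSMUSG00000025479), which oxidises ethanol and acetaminophen, was at 3.79 and 7.42 FPKM, and Cyp3a11 (ENSMUSG00000056035), the main CYP3A of mouse liver, at 2.47 and 7.57 FPKM. In the WT library, every hepatocyte-type gene but Cyp4v3 thus lay below 4 FPKM, while the 5 highest macrophage-expressed genes lay between 9.92 and 24.5 FPKM. The rest of the macrophage-expressed class, from Ugt1a7c at 2.98 FPKM down, also lay below 4 FPKM, so the classes overlap in level. Since the classes were set with earlier results of these data known, their difference in level is not independent of the assignment.

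The upstream sequences of these genes are shown because the classes differ in some, though not all, of the short motifs searched. The rule for members and the FPKM values did not use these letters. RefSeq promoter windows (GRCm38.p6) were matched by symbol for 92 of the 116 members, and the 250 bases before the gene start were searched on both strands. The genome build behind the deposited values was not stated. Capitals mark TATAAA (the TATA box), CAAAGTCCA (an element bound by the liver factor HNF4) and GAGGAAGT (an element bound by the myeloid factor PU.1), or their reverse complements. Among hepatocyte-type genes, Cyp3a11 (chr5:145879855-145880104, minus strand), Cyp2c70 (chr19:40187287-40187536, minus strand) and Cyp2e1 (chr7:140763569-140763818, plus strand) read, 5′ to 3′:
Cyp3a11: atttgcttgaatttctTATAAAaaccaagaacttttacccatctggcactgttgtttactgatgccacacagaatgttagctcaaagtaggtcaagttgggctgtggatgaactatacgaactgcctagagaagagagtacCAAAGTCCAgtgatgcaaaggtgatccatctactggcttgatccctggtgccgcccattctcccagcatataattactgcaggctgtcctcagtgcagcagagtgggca
Cyp2c70: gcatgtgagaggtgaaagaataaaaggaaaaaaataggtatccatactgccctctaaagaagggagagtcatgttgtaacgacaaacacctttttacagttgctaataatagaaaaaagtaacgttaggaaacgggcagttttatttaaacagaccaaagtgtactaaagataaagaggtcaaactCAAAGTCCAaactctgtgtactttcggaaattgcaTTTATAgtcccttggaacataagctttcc
Cyp2e1: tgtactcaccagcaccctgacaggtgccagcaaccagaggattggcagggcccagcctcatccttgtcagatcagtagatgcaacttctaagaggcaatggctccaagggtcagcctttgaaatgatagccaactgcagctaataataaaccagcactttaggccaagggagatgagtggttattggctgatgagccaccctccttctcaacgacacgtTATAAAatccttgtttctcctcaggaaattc
Among macrophage-expressed genes, Cyp27a1 (chr1:74713285-74713534, plus strand), Cyp4f18 (chr8:72009627-72009876, minus strand) and Cyp4f16 (chr17:32536307-32536556, plus strand) read:
Cyp27a1: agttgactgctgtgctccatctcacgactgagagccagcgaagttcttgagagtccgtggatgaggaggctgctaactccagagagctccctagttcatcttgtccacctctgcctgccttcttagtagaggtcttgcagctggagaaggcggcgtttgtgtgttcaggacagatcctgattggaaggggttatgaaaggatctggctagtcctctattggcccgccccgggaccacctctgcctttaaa
Cyp4f18: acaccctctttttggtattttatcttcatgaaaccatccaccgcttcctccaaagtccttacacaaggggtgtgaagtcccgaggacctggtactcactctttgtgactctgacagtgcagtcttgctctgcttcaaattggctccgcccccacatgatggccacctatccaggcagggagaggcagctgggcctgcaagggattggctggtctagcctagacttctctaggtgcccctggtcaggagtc
Cyp4f16: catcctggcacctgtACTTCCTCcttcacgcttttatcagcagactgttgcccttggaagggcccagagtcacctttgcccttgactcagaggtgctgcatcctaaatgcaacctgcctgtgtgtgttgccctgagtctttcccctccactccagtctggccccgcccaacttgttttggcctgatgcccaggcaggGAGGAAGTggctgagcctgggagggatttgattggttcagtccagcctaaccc

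TATAAA was present in 23 of the 54 hepatocyte-type genes with a window (42.6%), in 1 of 12 macrophage-expressed genes, Cyp26b1, and in 12.4% of all 32851 windows. The shares count a match on either strand and anywhere in the window. Those of the classes count genes, with a match in any window of the gene. Those of all windows count single windows, 32851 for 27025 symbols, so the units differ. In Cyp2e1 the match lay on the gene's own strand and began 31 bases before the start. In Cyp2c70 it lay on the opposite strand, as TTTATA, 29 bases before the start. In Cyp3a11 it lay on the gene's own strand, 234 bases before the start. Among the 23 genes, some had only opposite-strand matches (Cyp2d9 and Cyp2d10). Others had only distant ones (Cyp3a16 at 126 and Cyp3a44 at 122 bases). Near copies such as Cyp3a41a and Cyp3a41b are also among the 23 and are not independent of each other. CAAAGTCCA was present in 10 of the 54 hepatocyte-type genes (18.5%), in none of the 12 macrophage-expressed genes and in 0.384% of all windows. The 10 include Cyp8b1 and runs of near copies (Cyp2c40, Cyp2c67, Cyp2c68 and Cyp2c69, and Cyp3a16, Cyp3a41a and Cyp3a41b), which are not independent of each other. GAGGAAGT was present in 4 of the 54 hepatocyte-type genes (7.41%), Cyp4v3 among them, in 1 of the 12 (8.33%), Cyp4f16, and in 2.44% of all windows. Its share was thus similar in both classes. A match describes these letters and does not show that a factor binds.

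Between the genotypes, most hepatocyte-type P450s had higher values in the FABP7 KO library, with FPKM folds of 3.06 for Cyp3a11, 2.74 for Cyp2d10 and 1.96 for Cyp2e1. A ratio is the log2 of KO FPKM + 1 over WT FPKM + 1, a scale that compresses differences of weakly expressed genes. A gene passed the size rule at a ratio of 1 in either direction, 2-fold on this scale, while folds in the text are of the FPKM themselves. Of the 22 members at the floor, 1 passed it as higher (Cyp3a11, 4.55%) and 0 as lower. Of the 10770 genes at the floor 5.16% passed it, 2.21% as higher and 2.95% as lower, so the share of members was close to that of all genes. At a rule of 1.5 no member passed, with 1.75% of all genes. Of these 22, 5 had reached the floor in the KO library alone and 1 in the WT library alone, and directions are therefore given over all members with a value.

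Without a floor, 35 of the 43 hepatocyte-type P450s with a value were above their WT level in the KO library and 7 below it. Of the 43, 8 had a value in the KO library alone and 3 in the WT library alone, which fixes their direction. Among all 15199 genes with a value, 53.4% were above and 44.8% below. For 795 of these the value was in the KO library alone, and for 585 in the WT library alone. For the members under the floor alone, 25 of 33 hepatocyte-type P450s were above and 7 below, where all genes under the floor gave 61.1% and 33.2%. The summed FPKM of the 54 hepatocyte-type P450s other than Cyp4v3 was 18.6 in WT and 38.5 in KO, a fold of 2.07.

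The drug-metabolising families CYP1 to CYP3 held 58 members, of which 37 had a value. Of these 30 were above their WT level in the KO library and 5 below it. A value in the KO library alone was held by 8, and in the WT library alone by 2. The floor was reached by 9, with ratios of 0.17 to 1.30, and 4 of the 9 (Cyp2a12, Cyp2c23, Cyp2c70 and Cyp2d9) reached it in the KO library alone. For Cyp3a11 the ratio was 1.30. From about 224 and 690 estimated fragments, its FPKM was 3.06-fold higher in KO, with an exact 95% binomial interval of 2.63 to 3.58 that covers counting error only, as do the intervals that follow. Fragments were counted on a merged exon length of 5093 bases, which may overstate them and narrow the interval. Of the other Cyp3a genes, 3 were above 0 without reaching the floor and 5 were listed at 0 in both libraries.

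For Cyp2e1 the ratio was 0.81 and the FPKM 1.96-fold higher (1.6 to 2.40). Cyp2d10, of the drug-metabolising CYP2D enzymes, was at 1.27 FPKM (WT) and 3.48 FPKM (KO), a ratio of 0.98 and a fold of 2.74 (1.88 to 4.15). It shared 11.7% of its 100-base stretches with Cyp2d11 and Cyp2d9, and Cyp2d9 (0.87 and 2.1 FPKM) shared 7.91% with other genes, so their reads may not be fully separated. Cyp2a12, which hydroxylates bile acids, was at 0.99 and 2.12 FPKM, with a fold of 2.14 (1.56 to 2.94).

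The remaining members of these families at the floor moved less or rested on few fragments. Cyp2f2, a naphthalene oxidase of lung and periportal liver, was at 1.09 and 1.88 FPKM, and Cyp2c23, an arachidonic acid epoxygenase, at 0.52 and 1.19 FPKM. For Cyp2c70, needed for the mouse muricholic acids (0.96 and 1.2 FPKM), and Cyp2d26 (1.01 and 1.5 FPKM), the counting intervals of the fold, 0.78 to 2.03 and 0.93 to 2.41, included 1. Cyp1a2, a pericentral P450, stood at 0.43 and 0.66 FPKM. Cyp2b10, the target gene of the receptor CAR, was at 0.06 FPKM in WT and listed at 0 in KO.

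In the CYP4 family, the 5 members at the floor had ratios from 0.03 (Cyp4v3) to 0.81 (Cyp4b1). Cyp4b1 was 1.92-fold higher in KO (1.59 to 2.31). The counting interval excluded 1 for Cyp4f13 (1.35-fold, 1.24 to 1.46) and included it for Cyp4f16 (0.94 to 1.16), Cyp4f18 (0.96 to 1.31) and Cyp4v3 (0.96 to 1.10). The 8 Cyp4a genes, several of them PPARα targets in hepatocytes, summed to 0.41 FPKM (WT) and 1.23 FPKM (KO), with Cyp4a14 at 0.04 and 0.49 FPKM.

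Among the P450s of sterols, steroids and vitamins, Cyp27a1 and Cyp2r1 alone reached the floor out of 18. Cyp27a1 was 1.55-fold higher in KO (1.43 to 1.68), a ratio of 0.61. Cyp2r1, which carries out the first hydroxylation of vitamin D, was at 1.33 and 2.88 FPKM, 2.17-fold higher (1.54 to 3.09). Cyp26b1, which breaks down retinoic acid, was at 0.24 and 0.79 FPKM. The bile acid enzymes of hepatocytes were nearly absent, with Cyp8b1 at 0.37 and 0.23 FPKM and Cyp7a1, the rate-limiting enzyme of bile acid synthesis, listed at 0 in WT and at 0.01 FPKM in KO. Cyp7b1, the oxysterol hydroxylase, was at 0.08 FPKM in both, and Cyp27b1, which activates vitamin D, was listed at 0 in both.

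The macrophage-expressed class held both directions. Of its 14 genes, 13 had a value, with 8 above and 3 below their WT level in the KO library. The 7 genes at the floor had ratios from -0.90 (Ugt1a7c) to 0.74 (Cyp2r1) with a median of 0.15, beside 0.004 over all 10770 genes, and none passed the size rule. All 7 reached the floor in both libraries. Of them 5 had ratios above and 2 below 0, where 50.3% of all genes at the floor were above and 49.5% below. Cyp20a1 was 0.84-fold in KO relative to WT (0.74 to 0.95). Summed FPKM was 79.7 in WT and 97.6 in KO, a fold of 1.22. For all 69 hepatocyte-type genes the fold was 1.38 (53.1 and 73.3 FPKM). It was 1.72 for the 68 other than Cyp4v3 (27.3 and 46.9 FPKM). No gene was left out of the macrophage-expressed sum, which holds Cyp27a1 at 24.5 and 38.0 FPKM. The difference between the classes was not tested, since there is 1 library per genotype. The medians of genes at the floor were 0.46 for hepatocyte-type and 0.15 for macrophage-expressed genes, an order that turned without the floor (0.06 and 0.11).

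**Figure D2:**
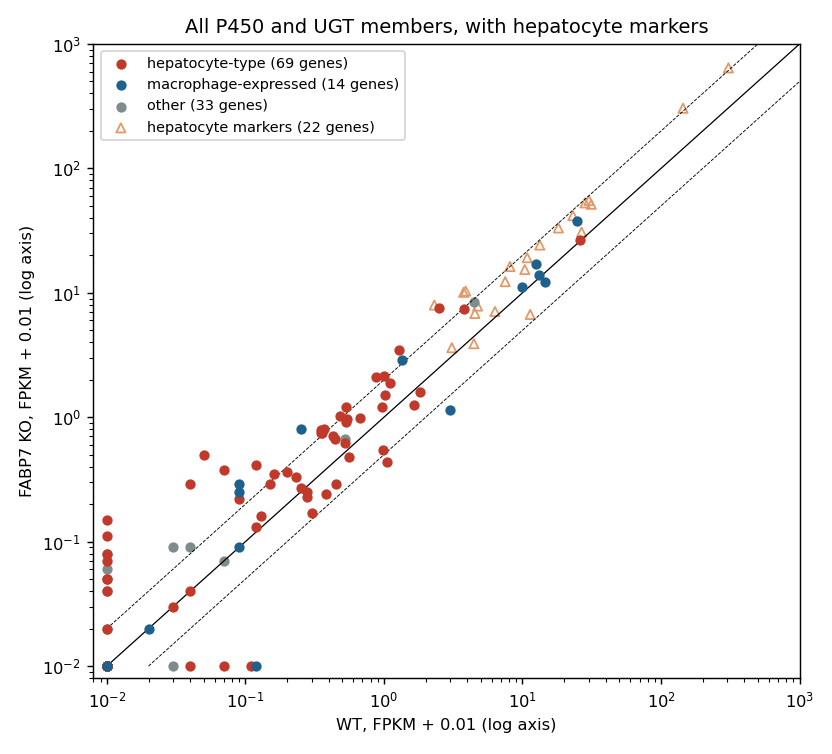
FPKM + 0.01 in the WT (x axis) against the FABP7 KO library (y axis), both on log axes, for all 116 members by class and for 22 hepatocyte markers (triangles), with equality (solid) and 2-fold lines (dashed). Above 1 FPKM most red points lie between equality and the upper dashed line or just beyond it, as Cyp3a11 at 2.47 and 7.57 FPKM does, Ugt1a7c lies below the lower line at 2.98 and 1.13 FPKM, and points under 0.1 FPKM rest on few fragments.

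The UGT genes were split in direction. Of 14 Ugt members with a value, 6 were above and 7 below their WT level in the KO library, and the summed FPKM of all 19 was 11.7 in WT and 9.46 in KO. Ugt1a7c was the highest Ugt gene in WT, at 2.98 FPKM (WT) and 1.13 FPKM (KO), 0.38-fold (0.29 to 0.49), a ratio of -0.90. Ugt1a6b, at 1.04 and 0.43 FPKM, was 0.41-fold (0.22 to 0.72), and Ugt1a6a, at 0.97 and 0.54 FPKM, 0.56-fold (0.38 to 0.84). These enzymes glucuronidate phenols and other small planar compounds.

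Ugt1a1, the bilirubin enzyme, differed in direction, at 0.53 FPKM (WT) and 0.96 FPKM (KO), 1.81-fold (1.03 to 3.23). Genes of the Ugt1 cluster each have their own first exon and share the later ones. In the annotation, 50.4% to 71% of the 100-base stretches of the 9 Ugt1 genes also occur in another gene, so their separate values depend on how shared reads were assigned, and that was not stated. Their sum was 6.19 FPKM (WT) and 3.68 FPKM (KO).

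The Ugt2 genes, which glucuronidate steroids and bile acids, lay in both directions. Ugt2b5 was at 1.81 and 1.59 FPKM, 0.88-fold (0.595 to 1.29), and Ugt2b36 at 1.64 and 1.25 FPKM, 0.76-fold (0.51 to 1.14). Ugt2b34 was 2.17-fold higher in KO (1.45 to 3.33), and Ugt2b1 was at 0.51 and 0.61 FPKM. The sum of the 10 Ugt2 genes was 5.48 FPKM (WT) and 5.78 FPKM (KO). Ugt2b5 shares 24.7% of its stretches, mainly with Ugt2b38.

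Markers of hepatocytes were also mostly higher in the KO library. All 22 listed markers were at the floor, 20 had ratios above 0, 5 passed the size rule as higher and 0 as lower, with a median ratio of 0.79. Their summed level was 703 FPKM (WT) and 1364 FPKM (KO), and none was at 0. Albumin (Alb) was at 144 and 305 FPKM, Rbp4, the plasma retinol carrier, at 2.30 and 7.96 FPKM, Bhmt at 3.75 and 10.1 FPKM, and Apoc3 at 3.88 and 10.3 FPKM. Trf, at 306 and 642 FPKM, is the highest, and macrophages may also express it. The part of hepatocyte RNA in the P450 values was not tested. In bulk RNA, more cells of a type and more RNA per cell cannot be told apart.

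Set against albumin in the same library, Cyp2e1 stood at 2.63% of the Alb FPKM in WT and 2.44% in KO. Cyp3a11 stood at 1.71% and 2.49%, and Cyp2d10 at 0.88% and 1.14%. Cyp2a12 stood at 0.69% and 0.70%, Cyp2d9 at 0.60% and 0.69%, and Cyp2c23 at 0.36% and 0.39%. Cyp2c70 stood at 0.67% and 0.39%, Cyp2d26 at 0.70% and 0.49%, and Cyp2f2 at 0.76% and 0.62%. Among the Ugt2 genes, Ugt2b5 stood at 1.26% and 0.52%, Ugt2b36 at 1.14% and 0.41%, and Ugt2b34 at 0.33% in both. The P450s named thus lay on either side of albumin, whose own fold was 2.11, beside 1.94 for the sum of the 22 markers. The Ugt2 genes named lay below it or level with it. The counting interval of the fold lay above 2.11 for Cyp3a11 and below it for Cyp2c70, Ugt2b5 and Ugt2b36. It included 2.11 for the other members named here. Albumin is 1 of 22 markers, whose own folds ran from 0.59 (Pck1) to 3.46 (Rbp4). The folds of all members named here lay within that range.

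Genes linked to a position along the liver lobule were compared because Cyp2e1 and Cyp1a2 are pericentral and Cyp2f2 periportal enzymes. The 7 pericentral genes had a median ratio of 0.17, taken without the floor, with Glul at 244 and 266 FPKM, Oat at 57.2 and 47.2 FPKM and Slc1a2 at 2.77 and 5.23 FPKM. Glul and Oat are not limited to hepatocytes. The 8 periportal genes had a median of 0.61 without the floor, with Cps1, the entry enzyme of the urea cycle, at 1.35 and 3.70 FPKM, Ass1 at 8.79 and 14.8 FPKM and Pck1, also among the hepatocyte markers, at 11.3 and 6.69 FPKM. Hal (0.36 and 1.27 FPKM) and Hsd17b13 (0.65 and 2.19 FPKM) reached the floor in the KO library alone, and Arg1 was at 6.5 and 5.8 FPKM.

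Genes for proteins that serve P450s and UGTs lay in both directions. Of 15 such genes in the table, 6 had ratios above and 9 below 0, from -0.49 (Ugdh) to 0.56 (Cyb5r1), with a median of -0.03, and 0 passed the size rule. Por, the reductase that feeds electrons to microsomal P450s, was at 34.1 and 33.9 FPKM, the cytochrome b5 gene Cyb5a at 40.2 and 52.4 FPKM, and Cyb5r1 at 23.4 and 34.9 FPKM. Ugdh, which makes the UDP-glucuronate used by UGTs, was at 23.0 and 16.1 FPKM, and Ugp2, which supplies its substrate, at 54.4 and 46.9 FPKM. The lowest were Slc35d1, which carries UDP-sugars into the endoplasmic reticulum (2.34 and 2.76 FPKM), and the mitochondrial electron carriers Fdx1 (2.67 and 2.71 FPKM) and Fdxr (4.14 and 3.11 FPKM).

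Several regulators known to drive these families in hepatocytes were low, though Rxra and Cebpa, given below, were not. The xenobiotic receptors PXR (Nr1i2) and CAR (Nr1i3) were at 0.22 and 0.19 FPKM in WT and at 0.13 FPKM each in KO. Hnf4a was at 1.06 and 1.52 FPKM and the bile acid receptor Nr1h4 at 0.56 and 1.42 FPKM. In contrast the oxysterol receptor Nr1h3 (239 and 213 FPKM) and the partner receptor Rxra (152 and 144 FPKM) were high in both libraries. Of 15 regulators, 7 were at the floor with a median ratio of 0.47, Nr1h4 in the KO library alone, and over all 15 the median was 0.10. Nfe2l2, the regulator of antioxidant and detoxification genes, passed the rule at 58.5 FPKM (WT) and 134 FPKM (KO), and Cebpa was at 35.2 and 65.3 FPKM.

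Other enzymes and transporters of drug handling gave 26 genes at the floor of 38, with 2 past the size rule as higher, 1 as lower and a median ratio of 0.18. The carboxylesterase Ces3a was at 2.37 FPKM (WT) and 6.23 FPKM (KO), the sulfotransferase Sult1a1 at 29.2 and 62.4 FPKM, and the glutathione transferase Gstm1 was lower, at 38.3 and 14.8 FPKM. The most abundant were Aldh2 (520 and 579 FPKM), Gstp1 (177 and 127 FPKM) and Ephx1 (121 and 169 FPKM).

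Markers of most other liver and blood cells were higher in the KO library as well, and their part in the P450 values was not tested. Median ratios were 1.41 for 9 sinusoidal endothelial markers (Oit3 at 2.88 and 13.1 FPKM, summed 154 and 275 FPKM), 1.19 for 8 of 9 stellate cell and fibroblast markers at the floor (Lrat at 0.98 and 5.30 FPKM, summed 69.5 and 173 FPKM), and 1.61 for 7 of 10 neutrophil markers (S100a9 at 4.31 and 25.3 FPKM, summed 13.0 and 64.6 FPKM). For 4 of 6 B and plasma cell markers the median was 1.04 (summed 13.0 and 31.6 FPKM), for 4 of 5 erythroid markers 1.19 (25.9 and 64.8 FPKM), and for 2 of 6 cholangiocyte markers -0.36 (7.11 and 4.88 FPKM), with Cftr at 0 in both libraries and Epcam at 0 in WT. Of these genes, 3 stellate cell, 2 neutrophil and 2 B and plasma cell markers reached the floor in the KO library alone, and without the floor the medians were 1.15, 1.52 and 0.87. The cholangiocyte marker Krt19 (1.05 and 0.74 FPKM) reached it in the WT library alone, and the cholangiocyte median without the floor was -0.09. The 12 macrophage and Kupffer cell markers had a median of 0.13, with a sum of 19405 FPKM (WT) and 21941 FPKM (KO).

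**Figure D3:**
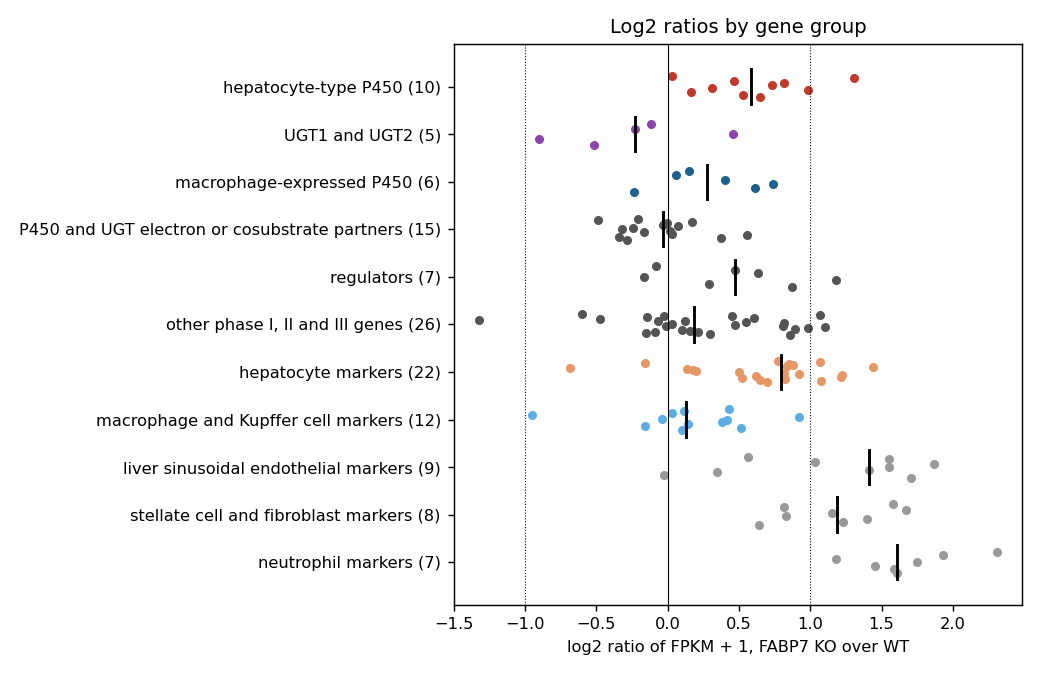
Each point is a gene's log2 ratio (x axis, KO FPKM + 1 over WT FPKM + 1) for genes at 1 FPKM or more in a library, by group (rows, number of genes in parentheses), with the group median as a black bar and 2-fold marked by dotted lines. The bar of the hepatocyte-type P450s stands at 0.59, that of the hepatocyte markers at 0.79, that of the UGT genes at -0.23 and that of the macrophage-expressed P450s at 0.28. Of the 10 hepatocyte-type P450s, 4 reached 1 FPKM in the KO library alone. Over all genes of these groups, without the floor, the medians are 0.10, 0.79, 0 and 0.15 in the same order.

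The number of members past the size rule depended on the pseudocount. With 0.1 FPKM added in place of 1, 6 members were higher (Cyp2a12, Cyp2c23, Cyp2d9, Cyp2d10, Cyp2r1 and Cyp3a11) and 2 lower (Ugt1a6b and Ugt1a7c), 8 of 22, where 9.34% of all genes at the floor passed, 5.22% as higher and 4.12% as lower. All 8 but Cyp3a11 were below 4 FPKM in both libraries. Cyp2a12, Cyp2c23 and Cyp2d9 reached the floor in the KO library alone, and Ugt1a6b in the WT library alone. The counting intervals of all 8 folds excluded 1. The 8 were picked by their ratios in these same values, so the intervals give no further support. Cyp2d10 also passed when the KO library was rescaled (ratios of 1.01 and 1.02).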

How the data were processed

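RNA-seq of F4/80-selected liver macrophages gave 1 library per genotype. Values are FPKM, computed and deposited by the authors to 2 decimals, and TopHat2 2.1.1 and Bowtie2 2.2.8 are listed, without their role, in the submitters' processing notes. For the genome build, annotation, counting tool and filters the sources used here give nothing. Each column was assigned to its genotype by its name and the sample title, and the single-library tables held the same values as the joint one.

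Symbols came from GENCODE M21 by Ensembl ID (22267 of 22322 genes). Log2 ratios used a pseudocount of 1 FPKM and a floor of 1 FPKM in at least 1 library, with a size rule of 1. With 1 library per genotype no test was made. The number of fragments per library was inferred from genes under 600 bases, whose low FPKM times exon length fall on whole multiples of 1 fragment. Of 108 WT and 111 KO values, 85.2% and 90.1% lay within 0.15 of a whole fragment, where chance gives 30%. The depth was chosen to make this share largest, while the 30% holds for a depth fixed beforehand. Fragments behind a gene are approximate, since the authors' gene lengths are not given, and a shorter length widens an interval. Printed intervals are exact binomial (95%). The members and gene lists were chosen with earlier results of these data known. Values are printed for the 3 genes Cyp4f18, Cyp27a1 and Cyp20a1, for every member past the size rule, for up to 4 members with the highest mean in each functional group, for those nearest the floor, for macrophage-expressed members at the floor and for the most abundant and most different genes of each list. Other genes named were chosen after their values were seen. The size rule was tried on simulated libraries, with large changes put only into genes above the level of most members. Class medians, class sums, the depth estimate and the counting intervals were not tried there. Alternatives were another pseudocount, floor, scaling, size rule and class membership. Python 3.11.15, NumPy 2.4.6, pandas 2.3.3, SciPy 1.17.1 and Matplotlib 3.10.9 were used.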

Additional observations from a re-analysis of the deposited data

How the results depend on the processing

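With a pseudocount of 0.1 FPKM, 6 members were higher and 2 lower past the size rule, with either rescaling of the KO library (divided by 0.974 or 0.965) 2 were higher, and with a size rule of 1.5 the count was 0. The difference between the class medians, 0.31, was -0.049 without a floor and 0.19 to 0.68 under the other alternatives. The hepatocyte-type median was 0.06 without a floor, 0.84 at the 0.1 FPKM pseudocount and 0.81 at a 5 FPKM floor. Chosen after seeing the data, it was -0.17 for hepatocyte-type Ugt genes alone and 0.65 for P450s without Cyp4v3, and the fold of the summed hepatocyte-type FPKM was 1.72 without Cyp4v3 against 1.38 with it. Without a floor these medians were 0 for the Ugt genes and 0.11 for the P450s. Of the 9 such P450s at the floor, 4 reached it in the KO library alone. Of 119 values of single members under other settings, 0 changed sign, 9 moved past the rule and 1 fell short of it. Another floor, size rule or pseudocount cannot change a sign. Only the rescalings could, and their divisors were close to 1. No paired analysis was possible because each genotype has 1 library. Depth limits most members, since 36 fragments give 1 FPKM on 2 kb.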
